A study of Mus musculus with 4 samples.

Results

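To examine the T-box genes that act after the primitive streak in CTCF-K20R cells, the open chromatin of 7 members of the family was described, Tbx1, Tbx2, Tbx4, Tbx5, Tbx15, Tbx18 and Tbx20. The genes were chosen by name, and are 7 of the 21851 protein-coding genes of the annotation. For each gene, the peaks within 1 kb and within 100 kb of the transcription start site (TSS) of its protein-coding transcripts were taken from 4 ATAC-seq peak lists. ATAC-seq is an assay in which a transposase cuts accessible DNA and marks it for sequencing, and a peak is a stretch with more cuts than its local background.

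The libraries came from embryoid bodies (EBs) on day 4 of differentiation, 2 from wild-type (WT) and 2 from CTCF-K20R cells. EBs are aggregates of mouse embryonic stem cells (mESCs, here the line E14Tg2A), formed in hanging drops once leukemia inhibitory factor (LIF) was withdrawn. In K20R cells, lysine 20 of the architectural protein CTCF was replaced by arginine with CRISPR/Cas9. Both genotypes had been grown on mitomycin C-inactivated mouse embryo fibroblasts, with LIF and the 2i inhibitors CHIR99021 and PD0325901, before differentiation. The K20R line was derived from targeted colonies, and how many clones stand behind the libraries is not given in the sources used here. The study describes its replicates as biological.

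T-box proteins are transcription factors that share a DNA-binding domain, the T-box, and bind sequences with a conserved core. The founding member Brachyury (T) and its relatives Eomes and Tbx6 act in the primitive streak and early mesoderm, whereas the genes described here are known for later roles, in the heart, pharynx, limbs and body wall. Tbx20 and Tbx5 are core factors of the heart, Tbx18 marks the epicardium and the sinus horns, Tbx2 represses chamber genes in the atrioventricular canal, Tbx1 acts in the pharyngeal arches and second heart field, Tbx4 in the hindlimb and lung, and Tbx15 in the craniofacial and limb skeleton. Tbx2 and Tbx4 are neighbours on one chromosome, as are Tbx3 and Tbx5 on another.

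The lists held 59783 and 66703 peaks in WT and 51823 and 55832 in K20R, so both K20R lists were shorter. The second library of each genotype had the higher enrichment, with median summit folds at shared regions of 5.86 and 7.74 in WT, compared with 5.73 and 7.59 in K20R. Read depth is unknown from the lists. The strength of a peak was therefore compared mainly by the list's own order: its percentile by −log10 p, where 100 is the strongest peak of its list. Peak counts, the presence of peaks and some summit folds are also given. Those can move with the length or enrichment of a list. Of the mesoderm markers of this stage, 7 of 7 had a promoter peak in all 4 lists, as did 5 of 5 pluripotency markers. The summed percentile of the mesoderm promoters was 513 and 491 in WT against 516 and 528 in K20R. That of the pluripotency promoters was 378 and 388 in WT against 394 and 400 in K20R. Both sums were higher in K20R, but the medians were not. The median mesoderm percentile was 82.7 and 82.1 in WT against 75.5 and 74.1 in K20R. That of the pluripotency promoters was 77.9 and 79.3 in WT against 79.1 and 78.8 in K20R, and overlapped. By gene, both K20R libraries were lower in 3 mesoderm markers and higher in 3, and lower in 1 pluripotency marker and higher in 3. The 5 cardiomyocyte markers had 4 and 5 promoter peaks in WT and 3 and 2 in K20R. The share of all genes that lose a promoter peak in the shorter K20R lists is not given here. Tnnt2, Myh6 and Actc1, which lacked a peak in at least 1 K20R list, had weak ones in WT, at percentiles of 45.9 or less. Of the 2 with a peak in all lists, Nkx2-5 was lower in both K20R libraries and Myl7 overlapped. Of 10 fibroblast markers, which would report feeder cells, 6 and 6 had a promoter peak in WT and 5 and 6 in K20R. Col3a1, Postn, Lum and Fap had none in any list. The summed percentile of the fibroblast promoters was 411 and 451 in WT versus 337 and 390 in K20R. This sum was lower in K20R, but a missing peak adds nothing to it. Dcn had 67.9 and 77.7 in WT, no peak in the first K20R library and 24.7 in the second. Of the 5 with a promoter peak in all lists, both K20R libraries were lower in 1 (Thy1), higher in 0, and overlapped in 4. Many values below are lower in K20R too, and the part of feeder cells in them was not tested. In bulk EBs, fewer cells with an open region and less opening per cell cannot be told apart.

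The regions that the results turn on are shown first. Peaks of the 4 lists that shared at least 1 bp were merged into regions. A region with a peak in all 4 lists is called common, and one with a peak in both lists of a genotype and in neither of the other is called restricted to that genotype. Each sequence below is the 300 bases around the strongest summit, from mm10 (GRCm38), plus strand. The first, at chr11:85734090-85734389 in an intron of Bcas3 upstream of Tbx2, is the common region near the 7 genes whose K20R percentiles were farthest below WT, chosen after its values were seen. The others are the strongest WT-restricted regions of 5 of the 6 genes that have one. They lie at chr11:85775661-85775960 (intron of Bcas3, for Tbx2), chr11:85804179-85804478 (introns of Bcas3 and 2610027K06Rik, shared by Tbx2 and Tbx4 and the strongest of Tbx4), chr5:119841930-119842229 (intron of Tbx5), chr3:99242603-99242902 (intron of Tbx15) and chr9:24782265-24782564 (intron of the upstream transcript Gm29824, for Tbx20). Capitals mark the letters AGGTGTG of the T-box core site, AGATAA of GATA factors, CTTTGAT of TCF-LEF factors or the CTCF consensus, on either strand.
Tbx2 far upstream common region: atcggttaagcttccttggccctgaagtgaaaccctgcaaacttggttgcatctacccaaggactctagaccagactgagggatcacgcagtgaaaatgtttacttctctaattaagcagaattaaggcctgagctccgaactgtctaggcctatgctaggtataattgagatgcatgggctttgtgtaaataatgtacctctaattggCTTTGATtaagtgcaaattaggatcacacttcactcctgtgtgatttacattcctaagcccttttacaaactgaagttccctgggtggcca
Tbx2 upstream WT-restricted region: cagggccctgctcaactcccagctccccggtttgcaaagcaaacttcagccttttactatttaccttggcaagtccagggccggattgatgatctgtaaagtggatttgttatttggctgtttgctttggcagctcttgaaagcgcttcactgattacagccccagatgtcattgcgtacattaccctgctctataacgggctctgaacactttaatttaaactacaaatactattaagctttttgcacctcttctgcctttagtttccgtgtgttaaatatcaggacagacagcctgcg
Tbx2 and Tbx4 shared WT-restricted region: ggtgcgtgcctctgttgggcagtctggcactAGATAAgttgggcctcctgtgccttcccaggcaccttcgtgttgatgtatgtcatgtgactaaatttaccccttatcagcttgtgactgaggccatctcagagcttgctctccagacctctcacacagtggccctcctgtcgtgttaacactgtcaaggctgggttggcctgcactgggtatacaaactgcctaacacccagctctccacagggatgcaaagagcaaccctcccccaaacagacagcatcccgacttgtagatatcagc
Tbx5 intronic WT-restricted region: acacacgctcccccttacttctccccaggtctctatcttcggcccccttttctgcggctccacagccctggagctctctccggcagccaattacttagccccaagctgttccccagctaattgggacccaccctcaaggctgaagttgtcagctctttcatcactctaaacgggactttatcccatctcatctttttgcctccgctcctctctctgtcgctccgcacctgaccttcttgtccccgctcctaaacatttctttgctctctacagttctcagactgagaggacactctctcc
Tbx15 intronic WT-restricted region: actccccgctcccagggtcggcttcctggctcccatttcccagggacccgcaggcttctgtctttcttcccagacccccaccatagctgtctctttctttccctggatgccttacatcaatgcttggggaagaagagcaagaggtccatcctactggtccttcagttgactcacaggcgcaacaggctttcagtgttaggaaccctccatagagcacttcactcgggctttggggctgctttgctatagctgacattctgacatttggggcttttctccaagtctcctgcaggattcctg
Tbx20 upstream WT-restricted region: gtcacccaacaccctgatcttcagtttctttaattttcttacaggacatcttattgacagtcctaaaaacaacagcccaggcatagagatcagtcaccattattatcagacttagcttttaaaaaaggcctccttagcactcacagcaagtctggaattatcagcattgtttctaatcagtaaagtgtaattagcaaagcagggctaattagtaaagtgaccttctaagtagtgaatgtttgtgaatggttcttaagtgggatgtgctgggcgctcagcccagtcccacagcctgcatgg

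In these 6 windows there is a TCF-LEF match at base 210 of the first sequence, a GATA match at base 32 of the shared Tbx2 and Tbx4 region, and no match to the T-box core or the CTCF consensus. Such short words are common. In the same window and on both strands, AGGTGTG was found in 7.13% of all 80380 regions, AGATAA in 12.0%, CTTTGAT in 4.02% and the CTCF consensus in 6.22%. Near the 7 genes the shares were 8 of 90 regions (8.89%) for AGGTGTG, 13 (14.4%) for AGATAA, 5 (5.56%) for CTTTGAT and 4 (4.44%) for the CTCF consensus. The longer T-box word AGGTGTGA, which contains the shorter one, was in 1 of the 90 (1.11%) and in 1.72% of all regions. These shares are a description of letters and were not tested. The median GC content of the windows was 54.3% near the 7 genes and 50.7% over all regions, both outside promoters.

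All 7 genes had a promoter peak in all 4 lists, as did 66.3% of protein-coding genes. To ask whether the promoters were less open in K20R, the strongest promoter peak of each gene was followed through the lists. The promoters stood in 3 tiers, with Tbx20 near the top of every list, Tbx18, Tbx15 and Tbx2 in the upper range, and Tbx1, Tbx4 and Tbx5 in the middle or below. In 3 genes (Tbx20, Tbx18 and Tbx2) both K20R libraries lay below both WT libraries, in 0 genes above, and in the other 4 the genotypes overlapped. Among the 14494 genes with a promoter peak in all lists, 32.2% had both K20R libraries lower and 15.8% both higher, so that 3 of 7 lies close to what all genes show.

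Tbx20, which encodes a factor needed for heart chamber growth, had a promoter peak at percentiles 92.9 and 93.2 in WT against 90.1 and 89.5 in K20R. The libraries of a genotype lay within 1 percentile of each other and the genotypes did not overlap. The means were 93.1 ± 0.232 in WT and 89.8 ± 0.428 in K20R (SD, n = 2), a difference of -3.24 with an exact two-sided permutation p of 0.33, the smallest that 2 against 2 libraries allow. The direction rested on the −log10 p. Ranked by the fold of the summit, the K20R mean was higher by 3.76 and the genotypes overlapped.

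Tbx18, a gene of the epicardium, had its promoter peak at 78.9 and 84.6 in WT, compared with 78.5 and 74.5 in K20R. The highest K20R value was only just under the lowest WT value, and the difference was -5.21 (WT SD 4.04, K20R SD 2.80, n = 2, exact permutation p = 0.33). Tbx2 had 68.5 and 69.6 in WT versus 58.7 and 67.2 in K20R. Here the K20R libraries differed from each other more than the genotypes did, and the difference of the means was -6.11 (WT SD 0.756, K20R SD 6.04, n = 2, exact permutation p = 0.33). Neither order held under 2 of the other settings. By fold the differences were -0.91 for Tbx18 and -0.51 for Tbx2, with lists cut to equal length -2.36 and -0.59, and in each case the genotypes overlapped. The order of Tbx18, but not that of Tbx2, was also lost with promoters ranked among themselves (below), where its difference was -6.93.

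The promoters of the other 4 genes did not part the genotypes. Tbx15, a gene of skeletal and limb mesenchyme, had 70.9 and 78.6 in WT against 71.4 and 80.8 in K20R. Tbx1 had 57.4 and 47.8 in WT, compared with 46.5 and 58.8 in K20R, with means of 52.6 and 52.7. Tbx5, the forelimb and heart factor, had the weakest promoter, at 23.1 and 43.0 in WT versus 33.7 and 41.8 in K20R, and its WT libraries spanned both K20R values. The difference between the means was 4.73 for Tbx5, 1.41 for Tbx15 and 0.0606 for Tbx1, with exact permutation p values of 1, 0.667 and 1.

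Tbx4 is a case of its own, since its 3 annotated start sites behaved differently. At the first TSS (chr11, position 85886422), the promoter region had percentiles of 24.8 and 31.3 in WT against 47.4 and 59.6 in K20R. Both K20R libraries were higher there, and the difference of 25.5 percentiles was reached by 2.22% of all common regions. At the second TSS (position 85890063) the values were 46.4 and 48.2 in WT, compared with 43.3 and 23.4 in K20R, but the first of these came from a neighbouring region within 1 kb. The region that spans this TSS had 39.5 and 48.2 in WT against 43.3 and 23.4 in K20R, and the genotypes overlapped. The third (position 85896765) had no peak in any list. The strongest peak of the gene therefore lay within 1 kb of the second TSS in WT and of the first in K20R, with 46.4, 48.2, 47.4 and 59.6, and overlapped. In the opposite direction to Tbx2, Tbx4 was thus the only one of the 7 with a start site at which both K20R libraries ranked above both WT libraries.

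**Figure D1:**
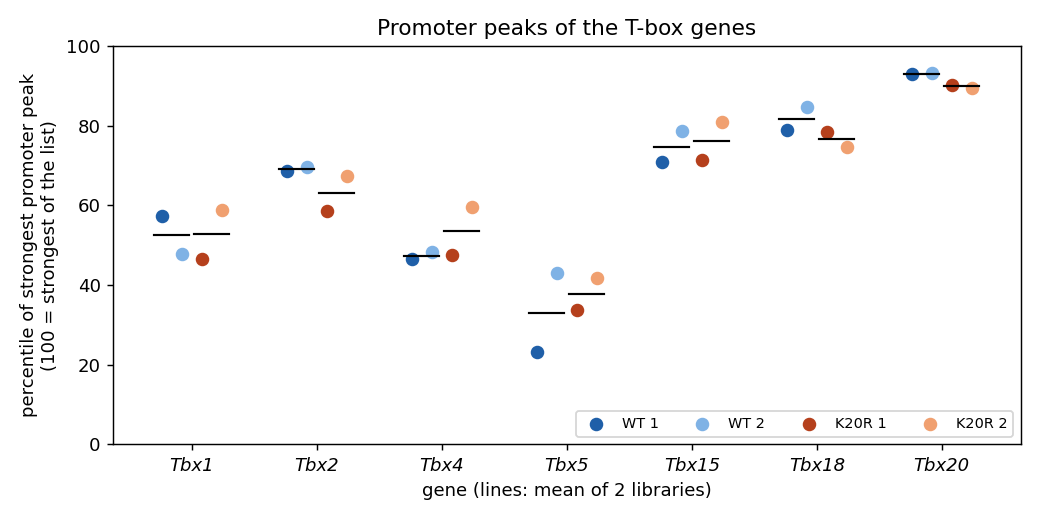
Percentile of the strongest promoter peak (y axis, 100 is the strongest peak of a list) of each T-box gene (x axis) in the 2 WT (blue) and 2 K20R (orange) libraries, with lines at the means of 2. Tbx20 sits highest, between 89.5 and 93.2, and Tbx5 lowest, and the K20R points lie below the WT points in Tbx2, Tbx18 and Tbx20.

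A percentile also moves with the weak peaks at the foot of a list. The promoters were therefore ranked anew among the 14494 genes that have one in every list. In this order both K20R libraries were lower in 2 genes (Tbx2 and Tbx20) and higher in 1 (Tbx4), where 23.0% of genes were lower and 23.9% higher. Tbx20 had ranks of 71.0 and 69.8 in WT versus 64.9 and 60.7 in K20R on this scale, and Tbx4 3.82 and 3.97 in WT against 4.89 and 8.58 in K20R. Among promoters open in every list, even that of Tbx20 was thus well below the top, and those of Tbx1, Tbx4 and Tbx5 stood near the foot, between 0.945 and 8.58 in every library.

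To follow the surroundings, all peaks within 100 kb of the start sites were counted. Together the 7 genes had 72 and 84 distinct peaks in WT and 65 and 61 in K20R, a mean of 78 ± 8.49 and 63 ± 2.83 (SD, n = 2). Both K20R counts were the lower ones. The log2 ratio of WT to K20R was 0.31, against 0.23 for all peaks of the lists. With every list cut to its strongest 51823 peaks, this ratio was 0.070.

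By gene, the count of each K20R library was under that of each WT library in 5 of 7 genes, more in 0, and overlapped in 2. Over all genes, 27.5% had fewer and 4.94% more, and of the genes with at least as many peaks as the sparsest of the 7 (a mean of 4.25), 33.7% had fewer. Tbx2 and Tbx4 share most of their peaks, so that the 5 are not independent of each other. The tally depended on which peaks were counted. With the lists cut to equal length, Tbx1 and Tbx20 were lower, Tbx5 was higher in K20R (log2 ratio -0.78) and the other 4 overlapped, and within 50 kb Tbx15 and Tbx20 alone were lower. The median log2 ratio of WT to K20R was 0.25 over the 7 genes and 0.13 over the 19627 genes that had a peak in both genotypes.

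Over all peaks, Tbx20 had the largest ratio, with 10 and 11 peaks in WT and 5 and 7 in K20R, a log2 ratio of 0.81 (exact permutation p = 0.33). With a −log10 q of 10 or more the ratio of Tbx20 was 0.14 and the genotypes overlapped. Tbx2 had 24 and 29 peaks in WT and 21 and 17 in K20R (log2 ratio 0.48, and 0.82 with a −log10 q of 10 or more, exact permutation p = 0.33), and Tbx4 22 and 28 in WT, compared with 21 and 18 in K20R (0.36, same exact p). In both neighbours the spread between the WT libraries was wide, but no K20R count reached a WT count.

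The remaining genes differed less. Tbx1 had 13 and 12 peaks in WT and 10 and 11 in K20R (log2 ratio 0.25), and Tbx15 10 and 11 in WT versus 9 and 9 in K20R (0.22). Both were lower in K20R by a peak or more, but reversed to -0.087 and -0.19 once a −log10 q of 10 or more was asked of a peak. Tbx18 had 5 and 4 peaks in WT and 4 and 4 in K20R. Tbx5 was the exception, with 8 and 14 in WT against 14 and 11 in K20R and a log2 ratio of -0.18, and its first WT library had the fewest peaks of the 4.

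**Figure D2:**
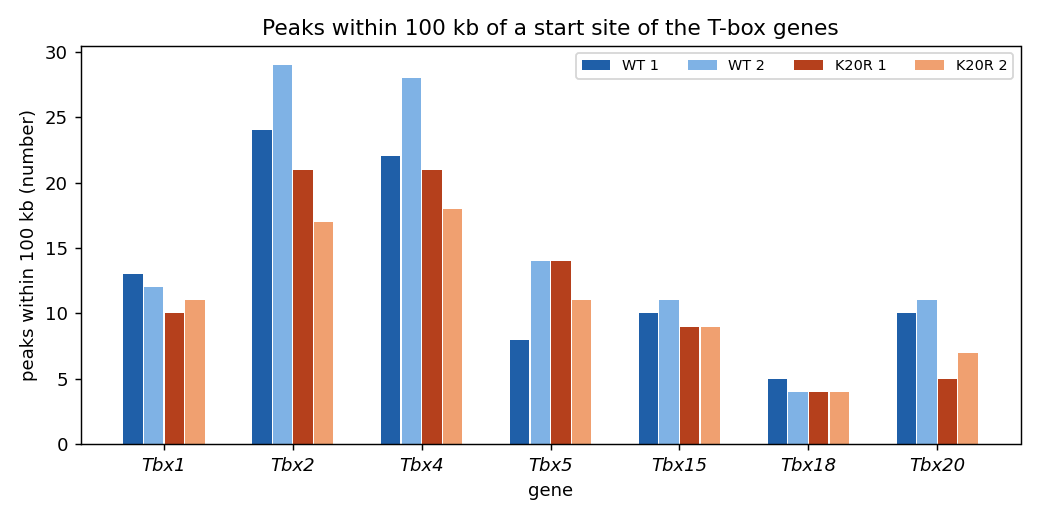
Number of peaks within 100 kb of a start site (y axis) of each T-box gene (x axis) in each of the 2 WT (blue) and 2 K20R (orange) libraries. Tbx20 has 10 and 11 peaks in WT and 5 and 7 in K20R, Tbx2 and Tbx4 have the most peaks and share most of them, and Tbx5 does not part the genotypes.

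The peaks near the 7 genes merged into 90 regions, 75 of them outside promoters. Of the 90, 47 (52.2%) were common, against 47.9% of all regions. WT-restricted regions numbered 12 (13.3%, against 10.4% of all regions) and K20R-restricted regions 1 (1.11%, against 3.10%). None of these 13 lay in a promoter. The shares near the 7 genes were thus close to those of the whole lists, but the regions were unevenly placed: 6 of the 12 lay upstream of Tbx2, 3 of which also belong to Tbx4, 3 lay near Tbx20, and Tbx1, Tbx5 and Tbx15 had 1 each. Tbx18 had none. At least 1 such region is found within 100 kb of 52.1% of all genes, at least 3 near 11.0% and at least 6 near 0.686%. These shares cover all genes, however many regions lie near them. Tbx2 had 31 regions of any class within 100 kb, Tbx4 29 and Tbx20 12, and more regions leave room for more restricted ones. The share among genes with as many regions is not given here.

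The Tbx2 gene lies on chr11 (85832551 to 85841948, plus strand), downstream of Bcas3, in whose introns most of the upstream regions fall. In chr11:85739799-85823023, a stretch of 83.2 kb that ends shortly before Tbx2, neither K20R list held a peak. The limits of this stretch were set by the nearest K20R peaks on either side, and not chosen beforehand. How often K20R lists lack peaks over such a length elsewhere is not given here, so its length alone does not set Tbx2 apart. In this stretch the WT lists held 6 and 8 peaks, in 8 regions, 6 of them WT-restricted. The strongest, 56.7 kb upstream of the Tbx2 start, had percentiles of 65.9 and 59.4 in WT and summit folds of 5.59 and 5.96. It is the second sequence shown above. The region at 28.2 kb upstream, shared with Tbx4, had 54.4 and 34.1, and the one nearest to the start, 14.0 kb upstream, 28.4 and 53.7. The weakest 3 had 28.3 and 50.6, 16.6 and 0.184, and 3.98 and 11.7 in WT.

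How firmly a peak can be called absent depends on the peak numbers, since the deposited lists leave out numbers that the caller had given. In the stretch without K20R peaks, 2 numbers were missing in the first K20R list and 1 in the second. At most 2 and 1 of the 8 regions could thus have had a called peak in K20R that was left out, although for each of the 6 restricted regions taken alone a left-out peak remains possible in both lists.

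Upstream of this stretch, beyond a weak peak of the first K20R list alone, the common region of the first sequence above lay 98.3 kb from the Tbx2 start. Its percentiles were 83.5 and 83.9 in WT, compared with 15.8 and 3.93 in K20R, and its summit folds 7.73 and 8.74 in WT versus 3.10 and 2.74 in K20R. A strong peak in WT was near the foot of both K20R lists. The difference of the means was -73.8 percentiles, and 0.0493% of the 38527 common regions had one as far below 0. It is also the region nearest to the limit of 100 kb, with its near end at 97.0 kb, while the first one outside, a common region 101.7 kb from a Tbx1 start, had 65.1 and 51.5 in WT against 45.4 and 28.4 in K20R.

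The WT-restricted regions were on one side of the gene. In the 100 kb upstream of Tbx2 the lists held 9 and 12 peaks in WT and 4 and 3 in K20R. From 500 to 100 kb upstream they held 13 and 14 in WT, compared with 8 and 7 in K20R. There, 4 more regions among 17 were WT-restricted, against 10.4% of all regions. These windows were set around Tbx2 alone, and the same one-sided counts for other genes are not given here. Downstream the counts overlapped, with 14 and 16 in WT versus 16 and 13 in K20R within 100 kb, and 5 and 6 in each genotype from 100 to 500 kb. The downstream 100 kb, which holds Tbx4, had 17 regions of which 0 were restricted to either genotype. The strongest common region outside promoters there, 12.0 kb downstream of the Tbx2 start and also the strongest of Tbx4, had 69.8 and 70.9 in WT against 72.3 and 72.5 in K20R and was slightly higher in both K20R libraries.

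One common region downstream was much weaker in K20R. It lies between the genes, 22.4 kb upstream of the first Tbx4 start (chr11:85863655-85864770), with percentiles of 71.5 and 68.2 in WT, compared with 28.5 and 16.2 in K20R. Its summit folds were 8.19 and 9.56 in WT versus 3.82 and 3.74 in K20R. The difference of -47.5 percentiles was matched or exceeded by 1.15% of common regions. This region and the far upstream one were the 2 farthest below WT among the 47 common regions near the 7 genes, and both lie within 100 kb of Tbx2.

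**Figure D3:**
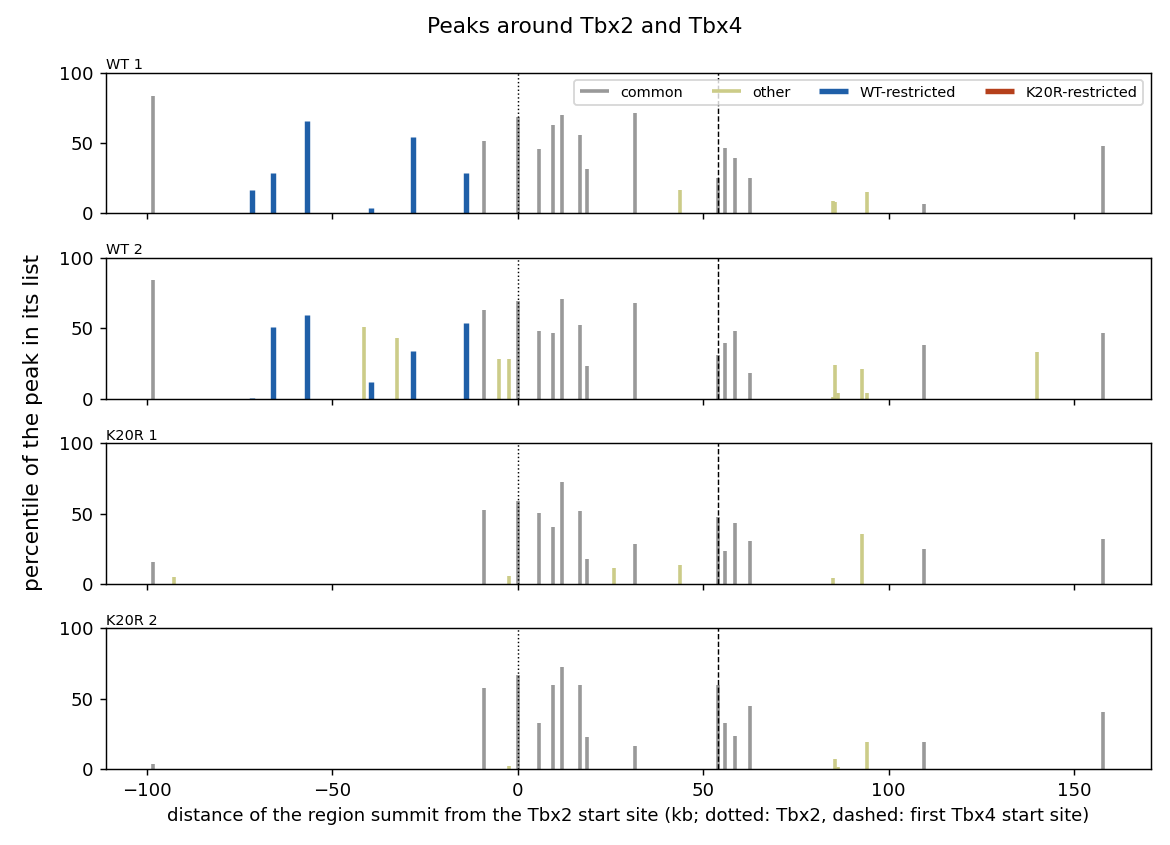
Percentile of each peak in its list (y axis, 1 panel for each library) against the distance of the region from the Tbx2 start site in kb (x axis), with common regions in grey, WT-restricted ones in blue and others in olive. The 6 WT-restricted regions lie upstream, where both K20R panels are empty over 83.2 kb, while the common regions downstream as far as Tbx4 stand in all panels. The limits of the empty stretch were set by the K20R peaks on either side.

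Around Tbx20 (chr9:24718138-24774303, minus strand), 3 WT-restricted regions lay upstream. The nearest, 8.11 kb away and shown as the last sequence above, had 33.4 and 43.0 in WT, the next, 33.0 kb away, 6.36 and 30.0, and the farthest, 74.1 kb away, 47.2 and 25.4. No K20R list had a peak in any of them. In the lists of K20R, 3 and at least 1 peak numbers were missing around each, so a called peak may have been left out. Close to the promoter, a region 2.39 kb upstream had 62.5 and 68.2 in WT, 50.0 in the second K20R library and no peak in the first, where no number was missing. The strongest common region outside promoters, 6.91 kb upstream, was higher in both K20R libraries, with 57.4 and 62.8 in WT against 71.2 and 65.2 in K20R.

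Tbx15 (chr3:99240381-99354259, plus strand) differed within the gene, in both directions. The WT-restricted region 11.0 kb upstream of the start of the protein-coding transcript had 32.1 and 36.1 in WT. No number was missing in either K20R list, so by its numbering no called peak was left out there. It starts at position 99242078, however, next to a stronger common region that ends at 99241884. Whether its class rests on how the caller split neighbouring peaks was not tested. A common region 5.18 kb upstream had 14.6 and 29.2 in WT against 62.7 and 47.3 in K20R, a difference of 33.1 percentiles that 0.885% of common regions reached. Another common region, 3.20 kb downstream, had 44.4 and 29.1 in WT, compared with 1.21 and 8.16 in K20R, a difference of -32.1 that 3.91% of common regions reached. The promoter and the strongest common region outside promoters, 12.5 kb upstream (73.0 and 79.0 in WT, 74.3 and 76.4 in K20R), did not part the genotypes. The latter region covers the 5′ end of the gene at position 99240381. That end is not a TSS of a protein-coding transcript in the annotation used, so it was not counted as a promoter.

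Tbx5 (chr5:119832668-119885219, plus strand) had 1 restricted region of each genotype, both in its introns. The WT-restricted one, 7.42 kb downstream of the start, had 28.8 and 18.5, again with no number missing in the K20R lists. The K20R-restricted one, 32.4 kb downstream (chr5:119866590-119867682), had 15.8 and 22.1 in K20R. There, 4 and 6 numbers were missing in the WT lists, so that a WT peak may have been left out. No other region near the 7 genes had a peak in both K20R lists and in neither WT list. The strongest common region outside promoters, 93.3 kb upstream in the direction of Tbx3, had 41.2 and 66.4 in WT versus 57.9 and 52.2 in K20R and overlapped.

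**Figure D4:**
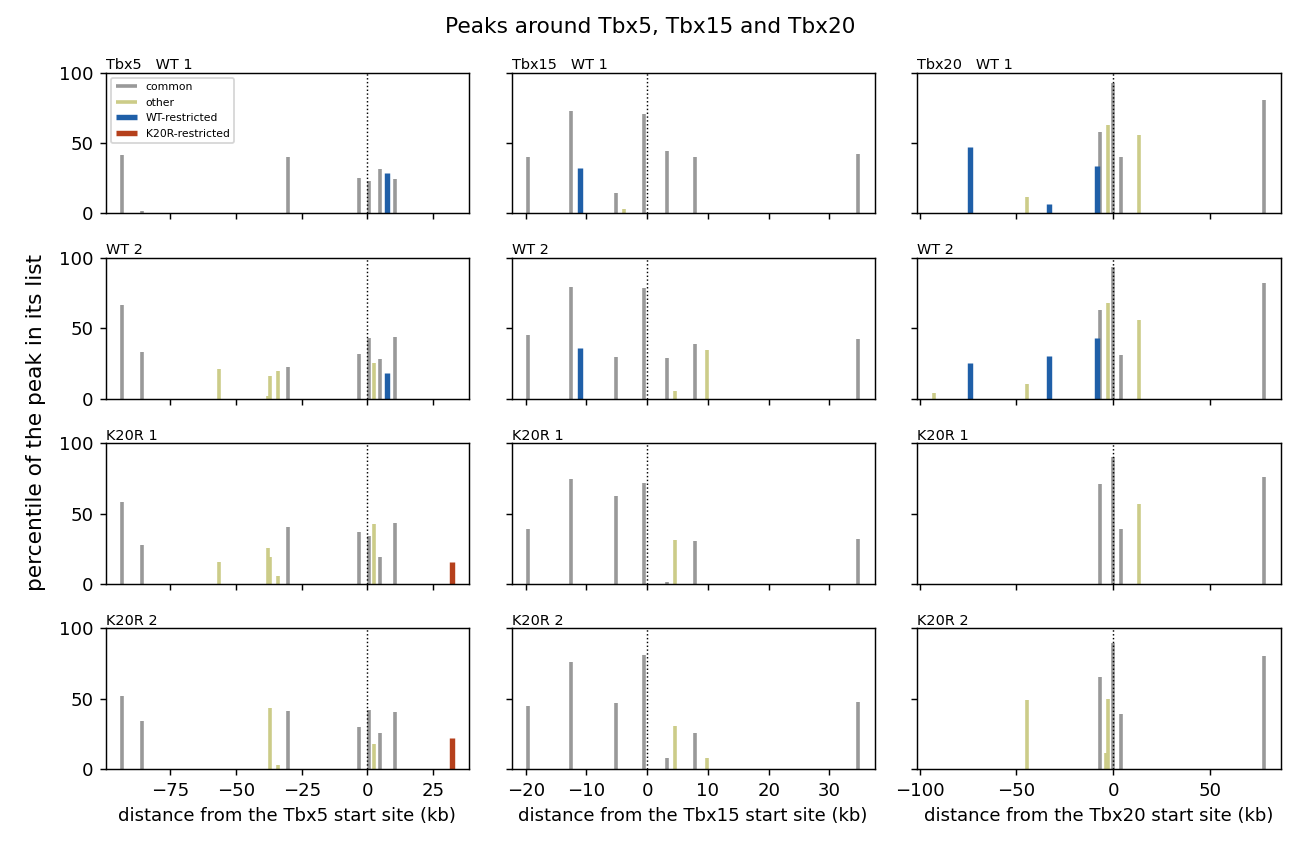
Percentile of each peak in its list (y axis, 1 row of panels for each library) against the distance from the start site in kb (x axis) around Tbx5, Tbx15 and Tbx20, with common regions in grey, others in olive, WT-restricted in blue and K20R-restricted in orange. The 3 blue regions of Tbx20 are missing from both K20R rows, and the K20R-restricted region of Tbx5 stands at 15.8 and 22.1.

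Tbx1 (chr16:18580979-18590671, minus strand), the gene of the pharyngeal arches, had common regions that differed in both directions. Within the gene, 4.76 kb downstream of the nearer start, a common exonic region had 37.1 and 34.5 in WT against 52.3 and 51.1 in K20R, higher in both K20R libraries. The strongest common region outside promoters, 96.4 kb upstream, had 94.1 and 94.1 in WT, compared with 87.7 and 89.6 in K20R, lower in both. Tbx18 (chr9:87702800-87731260, minus strand) had few regions, 5 in all, and its strongest one outside promoters, 9.54 kb upstream, had 87.2 and 87.8 in WT versus 79.5 and 78.6 in K20R. In both pairs the libraries of a genotype lay close together.

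Over the 47 common regions near the 7 genes, both K20R percentiles were lower in 16, higher in 10, and overlapped in 21. Of all common regions, 34.8% were lower and 18.6% higher. The median difference of K20R from WT was -1.07 near the 7 genes and -1.52 over all common regions. The 5 differences farthest from 0, in either direction, were those given above at Tbx2, Tbx4 and Tbx15.

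**Figure D5:**
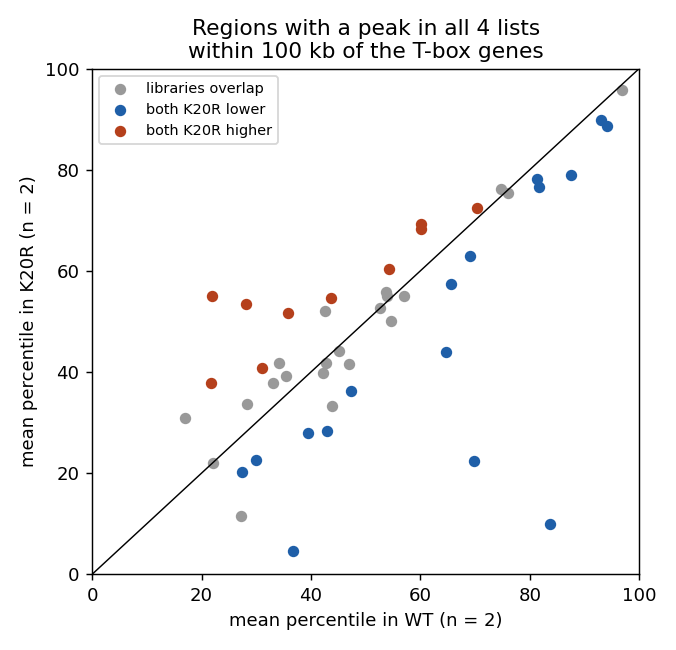
Mean percentile in K20R (y axis) against WT (x axis) for the 47 regions near the T-box genes with a peak in all 4 lists, each point a region and the line marking equality. The 2 lowest points on the right are the regions upstream of Tbx2 and between Tbx2 and Tbx4, with differences of -73.8 and -47.5 percentiles.

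The same measures were taken for genes that work with the 7. Of the other 10 T-box genes, 7 had a promoter peak in all lists, and Tbx10, Tbx19 and Tbx22 had none. Of those 7, both K20R libraries were lower in 2 (T, from 83.1 and 82.8 in WT to 66.7 and 65.6, and Mga), higher in 3 (Eomes, Tbr1 and Tbx21) and overlapped in 2 (Tbx3 and Tbx6). Of 8 partner factors, 5 were lower, and they were Gata4, Gata5, Gata6, Nkx2-5 and Hand1, known to act with T-box proteins at genes of the heart. Gata6 had 83.5 and 88.2 in WT against 56.5 and 66.0 in K20R. Mef2c was higher in both K20R libraries. Of 6 genes known as T-box targets, 2 were lower (Fgf10 and Fgf8), 0 higher, and Nppa had a promoter peak only in the second WT library. The shares of all genes, given above, are the background of these counts.

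For each of the 7 genes, the protein-coding gene with the most similar promoter percentiles over the 4 libraries was found, by the Euclidean distance of the 4 values. It was Cpm for Tbx20 (distance 0.639), Kcne1l for Tbx1 (1.53), Ptprf for Tbx2 (1.64), Spata17 for Tbx18 (1.84), 9130008F23Rik for Tbx15 (2.48), Hoxa10 for Tbx4 (4.22) and Ccdc24 for Tbx5 (6.53). The likeness is one of rank over 4 libraries only.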

How the data were processed

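ATAC-seq peak lists of 2 WT and 2 CTCF-K20R libraries of day 4 EBs were analysed, grouped by the genotype and replicate number in their labels. As the study's methods and the submitters' processing notes state, reads were trimmed with Trim Galore, aligned to mm10 with Bowtie2, filtered for mapping quality, duplicates and blacklisted regions, and peaks were called with MACS2. Each library has its own list. In the deposited lists the authors give a score (10 times the −log10 p), a fold ratio of the summit over the local background, a −log10 p and a −log10 q value. The fold is relative to the background of the same library and moves with enrichment, so the strength of peaks was compared mainly as percentiles within each list. The lists reach a p-value of 0.01, and 2.18% to 5.05% of their peaks have a q above 0.05. They hold between 50.6% and 60.8% of their own peak numbers, and the rule that removed the rest is not given in the sources used here. A missing peak is therefore firm only where no number is missing between its neighbours.

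TSSs were those of protein-coding transcripts in the GENCODE vM21 basic annotation (GRCm38), in which all 7 genes were found. Promoters were the 1000 bp either side of a TSS. Peaks were merged at 1 bp of overlap. Library values were compared by exact two-sided permutation tests, which cannot give a p under 0.33 here, and the test measures only the spread between these libraries. The genes, gene lists and tests were chosen with earlier results of these data known. The regions named were, for each gene, the promoter, the strongest restricted region of each genotype and the strongest common region outside promoters, except for items that are not reported here. Other regions were named after their values were seen. Of the T-box, partner and target lists, genes were named mainly where the genotypes did not overlap. Of the marker lists, counts are given, with summed percentiles except for the cardiomyocyte list and medians for the mesoderm and pluripotency lists. The marker genes named were picked after their values were seen. Motifs were searched within 150 bases of the strongest summit. Python 3.11.15, pandas 2.3.3, numpy 2.4.6 and matplotlib 3.10.9 were used, and the scripts were tested on simulated data. The alternatives tried were other ranks, windows, thresholds, overlaps and list lengths, leaving out each library, and a replicate block. No reads or coverage tracks were used.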

Additional observations from a re-analysis of the deposited data

How the results depend on the processing

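Of 365 values recomputed under the alternative settings, 75 concerned the counts and ratios over the 7 genes, and 51 of these kept their value within the limits set. The limits were wide. A fall of the WT-restricted regions from 12 to 8, of those at Tbx2 from 6 to 4, or of the promoters lower in K20R from 3 to 2 still counted as kept. Ranked by fold, 0 promoters were lower and 2 higher in K20R, and Tbx20 reversed to 3.76. With promoters ranked anew or the 5′ end of the gene alone, 1 was higher. With every list cut to its strongest 51823 peaks, 1 was lower and 2 higher, the log2 ratio of WT to K20R peaks was 0.070 and 3 regions were K20R-restricted. With a −log10 q of at least 5, 0 regions were K20R-restricted. With at least 10, the log2 ratio was 0.14 (also that of Tbx20 alone, whose genotypes then overlapped), 3 regions were WT-restricted, all 3 at Tbx2, 3 were K20R-restricted, and the log2 ratios of Tbx1 and Tbx15 reversed to -0.087 and -0.19. Within 50 kb, Tbx2 had 3 WT-restricted regions. With only gaps that lack no number in both lists of the other genotype, 2 WT-restricted regions remained (those of Tbx5 and Tbx15), 0 at Tbx2, and 0 K20R-restricted ones. The causes of these changes were not tested, beyond the smaller number of peaks that the thresholds and the number rule leave.

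Leaving out 1 library in turn, WT-restricted regions numbered 14 to 19, the most without WT replicate 1, those of Tbx2 6 to 9, K20R-restricted ones 1 to 6, the most without WT replicate 2 and 3 without either K20R library, promoters lower in K20R 3 to 4 and higher 0 to 3, with 3 without WT replicate 2 or K20R replicate 1. The log2 ratio was 0.19 to 0.42, the lowest without WT replicate 2. A genotype left with 1 library needs a peak in that library alone, which makes restricted regions more frequent. Same-numbered libraries deviated together with r = 0.0532 over 38527 common regions, so the replicate numbers were not taken as pairs. In a replicate block, 3 promoters were lower and 2 higher (Tbx4 and Tbx15), the log2 ratio was 0.30, and the smallest p of 2 pairs is 0.5. With 2 libraries a genotype and no read counts, small differences at weak peaks could not be resolved.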
